A study of Mus musculus with 15 samples.

Results

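The 10 goblet cell genes described here are Muc2, Fcgbp, Clca1, Zg16, Tff3, Agr2, Spink4, Retnlb, Spdef and Atoh1, out of 37620 gene identifiers in RNA sequencing of mouse ileum. They were listed by name, as genes known from mucus-secreting cells, and found in both deposited count tables through their Ensembl identifiers. All 10 had counts in each of the 15 libraries. The lowest was Retnlb with 14 counts in 1 library, and the other 9 had at least 730 counts in each library.

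Tissue came from the ileum, the distal end of the small intestine, of adult mice 8 days or 3 months after tamoxifen. Libraries labelled mutant came from Rfx6f/f; Vilin-CreERT2 mice, with both Rfx6 alleles floxed. Their Cre recombinase, fused to a receptor that tamoxifen activates, is expressed under the Villin promoter in cells of the gut epithelium. Controls had floxed Rfx6 and lacked the transgene. The protocol gives 1 tamoxifen treatment for the study, gavage of 10 mg spread over 5 days, and names no untreated group. At 8 days there were 3 controls, all Rfx6f/f, and 4 libraries labelled mutant. At 3 months there were 4 controls, 2 of them Rfx6f/f and 2 Rfx6f/+, and 4 libraries labelled mutant. Because no control carried CreERT2, the loss of Rfx6 and the presence of the recombinase cannot be told apart. Each library has its own identifier in the labels, which do not say that each came from a separate animal, so p-values measure the spread between these libraries, which may in part be technical.

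Goblet cells are secretory cells of the intestinal epithelium that store gel-forming mucin in granules and release it to build the mucus layer. They arise from crypt progenitors under Atoh1, the transcription factor that opens the secretory fate, and mature under Spdef. The enteroendocrine cells that need Rfx6 come from the same secretory progenitors. In bulk tissue, fewer goblet cells and less RNA per goblet cell cannot be told apart.

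In units of 1000000 counts, libraries held 26.1 to 54.5, and the 10 genes together took 1.61 to 3.19% of them. Levels are given as counts per 1000000 (CPM) after TMM scaling of all 15 libraries, and differences as log2 fold changes of libraries labelled mutant over controls with the standard error (SE). Called genes are those whose p, adjusted by Benjamini-Hochberg over the whole table, was under 0.05. Total Rfx6 counts did not fall: the log2 fold change was 0.19 (SE 0.18, edgeR adjusted p 0.867) at 8 days and 0.72 (SE 0.17, edgeR adjusted p 0.0347) at 3 months. The value at 3 months was positive in 17 of 17 alternatives, at 0.56 to 0.91, but its call was lost in 7 of them: without any 1 of the 4 controls, without mutant replicate 1 or 3, and with Rfx6f/f controls only. The floxed exons were not analysed separately here, and groups are named by their labels. A pair of 8-day libraries stood apart in Car1, a carbonic anhydrase abundant in large intestine: control replicate 3 had 165 CPM and mutant replicate 4 had 445 CPM, against at most 0.947 CPM in the other 13 libraries. The main results on goblet genes that use 8-day libraries are therefore also given without this pair. Markers of proximal small intestine differed too, with a summed level of 54.7 and 56.3 CPM in mutant replicates 4 and 2 of 8 days and 610.5 to 1289 CPM in the other 5 libraries of 8 days.

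Between genes, levels were compared per kilobase of annotated exon. In the 3-month controls Tff3, a trefoil peptide packed with mucin, was highest at 2251 ± 134 CPM per kb (SD, n = 4), followed by Zg16, a lectin that binds bacterial walls, at 1903 ± 239. Their ranges overlapped. Spink4 (892 ± 143), Clca1 (762 ± 44.6) and Fcgbp (749 ± 73.7) came next and overlapped with one another. Agr2 stood at 438 ± 31.5 and Muc2 at 220 ± 26.9, each apart from its neighbours. The transcription factors were lower, Atoh1 at 18.9 ± 1.54 and Spdef at 13.1 ± 1.16 CPM per kb, and Retnlb was lowest at 3.53 ± 2.34. In the 8-day controls the order differed in its middle: Fcgbp stood at 1374 ± 141 CPM per kb and Muc2 at 1037 ± 175.5 (SD, n = 3), with Muc2 overlapping Clca1 at 884 ± 21.4. In the 2 controls of 8 days outside the Car1-high pair, Fcgbp averaged 1293 CPM per kb, Muc2 967 and Clca1 885. The annotated exons of Muc2 span 7127 bases and those of Fcgbp 10497, against 477 for Spink4. Repeat-coding mucin exons are hard to assemble, so values per kb of Muc2 rest on the length as annotated.

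**Figure D1:**
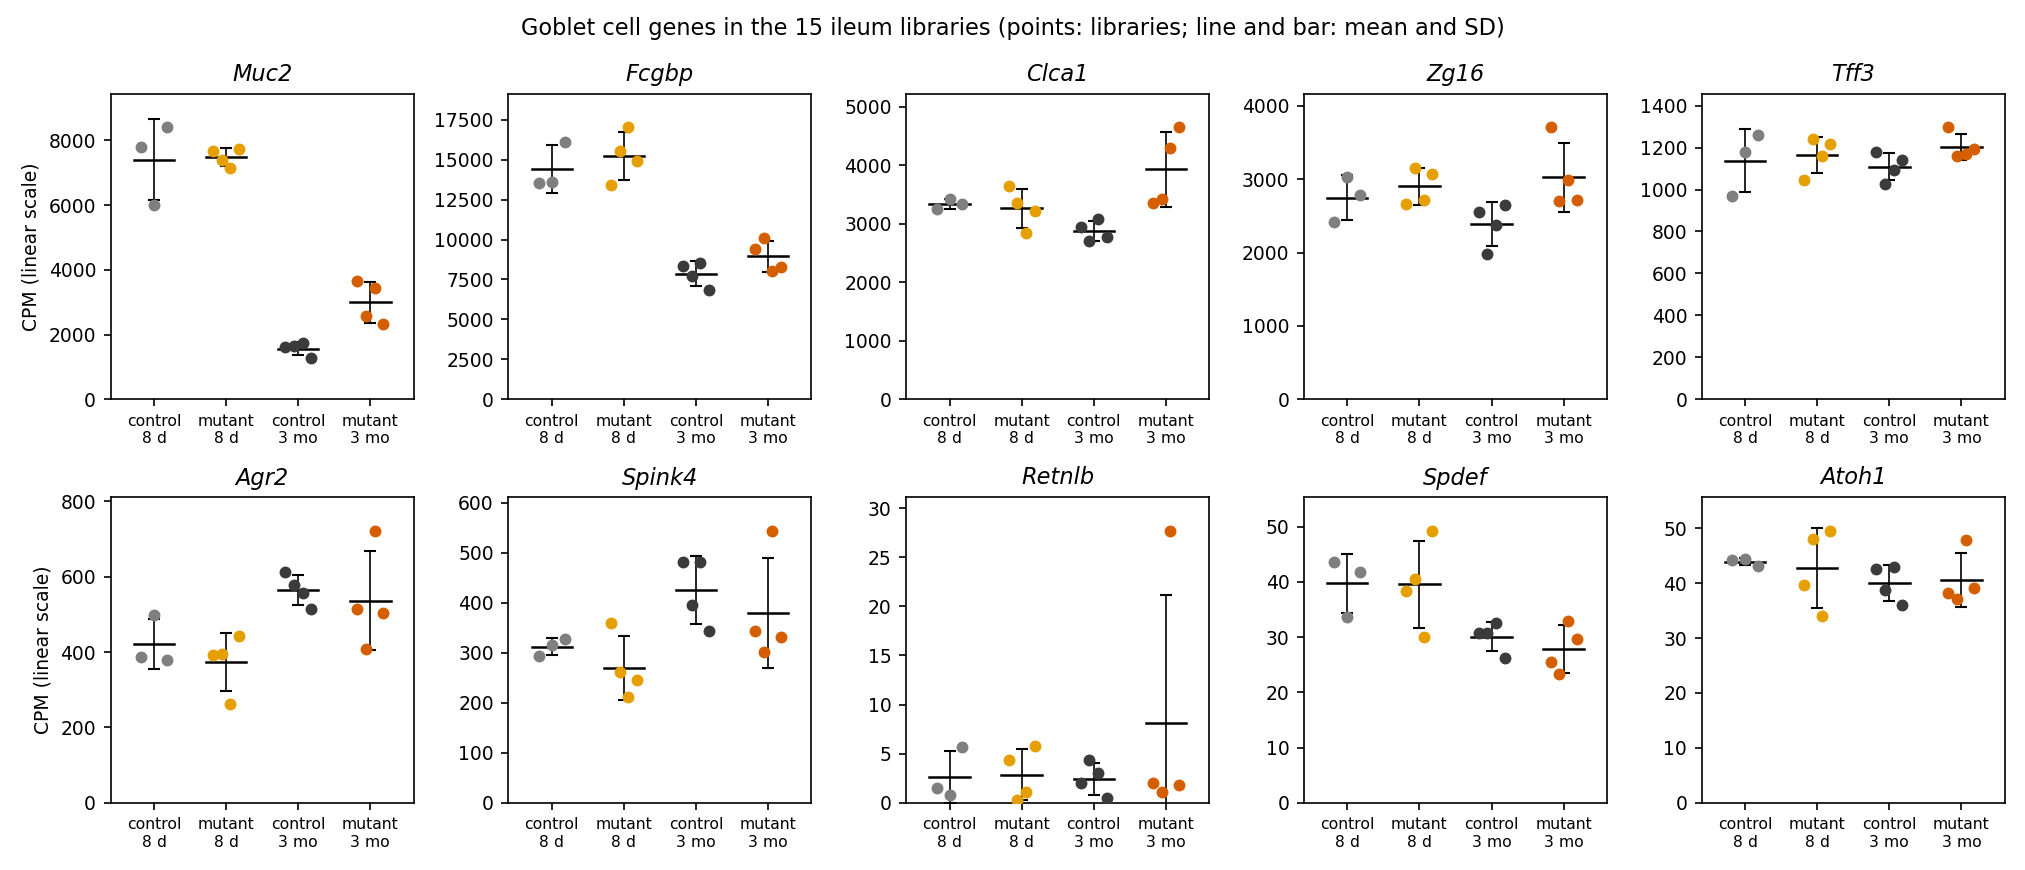
CPM of the 10 goblet cell genes (linear axis from 0, 1 panel per gene) in controls and libraries labelled mutant at 8 days and 3 months. Points are libraries, the line is the mean and the bar is the SD, cut at 0 for Retnlb. Muc2 lies between 5992 and 8395 CPM at 8 days and between 1289 and 3641 CPM at 3 months, where the mutant points sit above all controls.

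At 8 days no goblet gene was called as different between libraries labelled mutant and controls. Muc2, which encodes the gel-forming mucin of the intestine, stood at 7796, 5992 and 8395 CPM in the controls and at 7679, 7375, 7142 and 7745 CPM in the libraries labelled mutant. The mutant values lay inside the range of the controls, and the fold was 1.01 (95% interval 0.842 to 1.21). Fcgbp, a large mucus protein bound to the Muc2 gel, stood at 13540, 13590 and 16130 CPM in controls and at 13440, 15540, 17020 and 14910 CPM in libraries labelled mutant. These ranges overlapped too, with a fold of 1.05 (95% interval 0.886 to 1.25).

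Over the 10 genes at 8 days, 5 fold changes were positive and 5 negative, with a median log2 value of 0.0024 against -0.00197 over all genes tested. None was called by the edgeR quasi-likelihood test, and none passed an unadjusted p of 0.05, where 0.0915% of 17493 genes were called and 1540 passed the unadjusted p. DESeq2 also called 0 of the 10. The lowest adjusted p was 0.806, for Spink4 with a log2 fold change of -0.22 (SE 0.16). Leaving Retnlb aside, the 95% intervals of the fold lay between 0.669 and 1.27, so larger shifts of these 9 genes are outside their intervals. For Retnlb the interval ran from 0.253 to 4.38. Controls and libraries labelled mutant overlapped in each of the 10 genes, where 7.68% of all genes did not overlap. Without the Car1-high pair, 0 of the 10 were called, Muc2 stood at 0.10 on the log2 scale (edgeR adjusted p 0.999) and Fcgbp at 0.17 (adjusted p 0.986).

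At 3 months Muc2 was higher in the libraries labelled mutant, and it was the one goblet gene called. The controls stood at 1613, 1642, 1726 and 1289 CPM and the libraries labelled mutant at 3641, 2585, 3425 and 2330 CPM. The groups did not overlap, with means of 1567 ± 192 and 2995 ± 636 CPM (SD, n = 4 each). Muc2 was 1.93-fold higher (95% interval 1.5 to 2.49), a log2 fold change of 0.95 (SE 0.16, edgeR adjusted p 0.0144). That is 1 of 10 genes called, where 9.28% of 17085 genes were called, 4.96% as higher. With Rfx6f/f controls only, 2 against 4 libraries, the log2 fold change was 1.05 and the adjusted p 0.129, and 36 genes in all were called.

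Clca1, a secreted metalloprotease that remodels mucus, came closest to the threshold. Its levels were 2950, 2710, 3081 and 2775 CPM in the controls and 3361, 3427, 4297 and 4648 CPM in the libraries labelled mutant. The groups did not overlap, and the log2 fold change was 0.47 (SE 0.13, edgeR adjusted p 0.0519). It was called in 5 of its 17 alternatives. Zg16 stood at 2560, 1974, 2380 and 2655 CPM in controls and at 3706, 2698, 2985 and 2717 CPM in libraries labelled mutant. Here too no mutant value fell below the highest control and the log2 fold change of 0.35 (SE 0.14) gave an adjusted p of 0.131. Muc2, Clca1 and Zg16 were thus 3 of 10 genes without overlap, where 19.4% of all genes did not overlap and 8.76% did so with the mutants higher.

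The other components of the gel showed smaller differences. Fcgbp stood at 8333, 7701, 8564 and 6835 CPM in controls and at 9392, 10120, 8049 and 8270 CPM in libraries labelled mutant, which overlapped (log2 fold change 0.20, SE 0.13, edgeR adjusted p 0.309). Tff3 ranged from 1026 to 1180 CPM in controls and from 1159 to 1296 CPM in libraries labelled mutant, with a log2 fold change of 0.13 (SE 0.08, edgeR adjusted p 0.283). Its 95% interval, 0.972-fold to 1.24-fold, was the narrowest of the 10.

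The genes for folding, small secreted proteins and lineage control were not called. Agr2, a protein disulfide isomerase that assists mucin folding, ranged from 514 to 612 CPM in controls and from 408.5 to 721 CPM in libraries labelled mutant (a log2 difference of -0.06, SE 0.16, edgeR adjusted p 0.828). Spink4, a small secreted peptide of the Kazal inhibitor family, stood at -0.15 (SE 0.19, adjusted p 0.644). The transcription factors were close to even. Spdef stood at 30.7, 30.8, 32.6 and 26.3 CPM in controls and at 25.5, 23.4, 32.9 and 29.7 CPM in libraries labelled mutant, a log2 fold change of -0.10 (95% interval -0.35 to 0.16). Atoh1 stood at 42.6, 38.7, 42.9 and 36.1 against 38.1, 37.1, 47.8 and 39.1 CPM, a log2 fold change of 0.03 (95% interval -0.18 to 0.25). Both pairs of groups overlapped. With libraries scaled on epithelial markers instead, the signs of Agr2, Spdef and Spink4 turned positive, at 0.14, 0.10 and 0.06.

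Retnlb, a secreted resistin-like protein that acts on bacteria and parasites, had the largest fold change of the 10 genes at 3 months, and it rested on 1 library. The controls stood at 1.98, 4.33, 3.03 and 0.482 CPM and the libraries labelled mutant at 2.05, 1.12, 27.7 and 1.81 CPM. Only mutant replicate 3 lay above the controls, and the log2 fold change was 1.76 (SE 1.06, edgeR adjusted p 0.298) with it and -0.55 (adjusted p 0.581) without it. In the same library Agr2, Spink4, Spdef and Atoh1 were also the highest of the 4 libraries labelled mutant, while Fcgbp was the lowest.

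Over the 10 genes at 3 months, 7 fold changes were positive, with a median log2 value of 0.17 against 0.01 over all 17085 genes tested. Scaling on epithelial markers raised the median of all genes by 0.193 and called 5 of the 10 genes, Muc2, Fcgbp, Tff3, Clca1 and Zg16, where 91.7% of its 3459 calls were higher against 53.5% of 1586 under TMM.

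**Figure D2:**
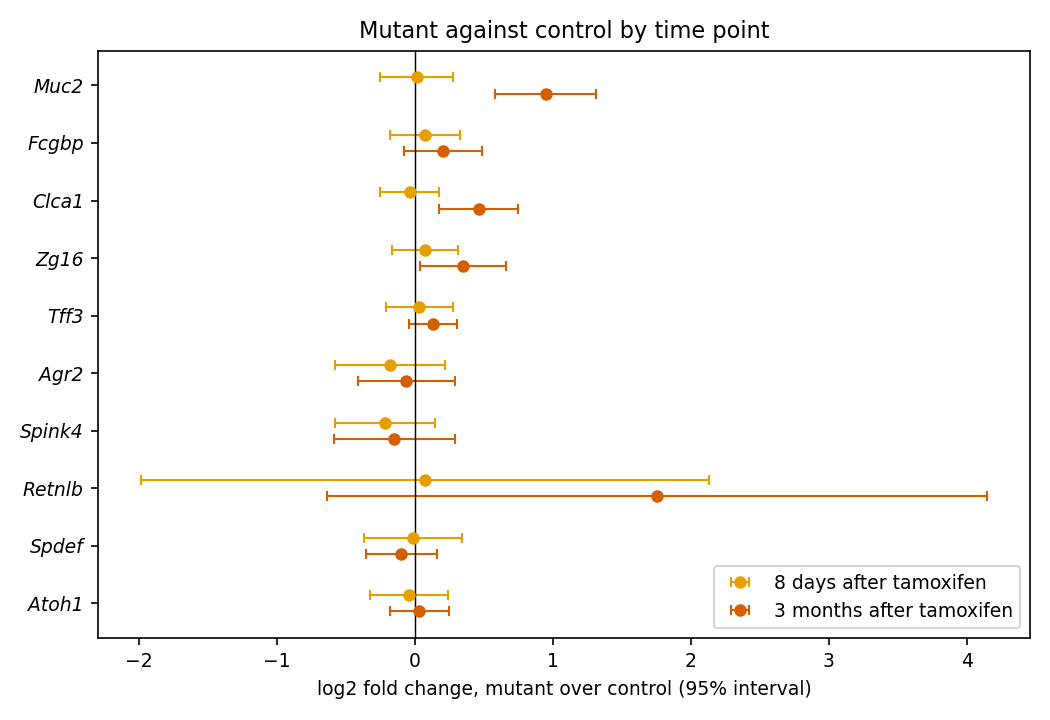
Log2 fold change of libraries labelled mutant over controls for each goblet gene at 8 days and at 3 months, with the 95% interval as a bar. The intervals of 8 days all include 0, and at 3 months those of Muc2, Clca1 and Zg16 lie above 0, with Muc2 at 0.95.

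Muc2 was also compared with the other goblet genes inside each library, which does not depend on scaling. The CPM ratio of Muc2 to Fcgbp was 0.188 to 0.213 in the 3-month controls and 0.255 to 0.426 in the libraries labelled mutant. The ratio of Muc2 to Atoh1 was 35.7 to 42.4 and 59.6 to 95.5. In both cases the groups did not overlap. The mutants were higher without overlap in 7 of the 9 ratios, Clca1 and Retnlb being the exceptions. That share, 77.8%, lay near the 74.5% of the ratios of Muc2 to all 17084 other genes tested, so it is not particular to goblet genes. At 8 days the groups overlapped in 9 of 9 ratios, where 2.81% of the ratios to all genes did not overlap. Without the Car1-high pair they overlapped in all but 1 of the 9, where 13.7% of the ratios to all genes did not overlap. These ratios share Muc2 and are not independent of one another.

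The difference between the effects of the 2 time points was tested as an interaction over all 15 libraries. For Muc2 the effect at 3 months exceeded that at 8 days by 0.92 on the log2 scale (SE 0.23, 95% interval 0.42 to 1.41), with an edgeR adjusted p of 0.0645. None of the 10 genes was called by edgeR, where 0.785% of 17959 genes were called. Muc2 and Clca1, 2 of the 10, had an unadjusted p under 0.05, as did 2973 of the 17959 genes. DESeq2 called the same pair among 1017 genes in all. Clca1 differed by 0.48 (SE 0.18, edgeR adjusted p 0.174), and the other 8 had adjusted p of 0.539 or more. The adjusted p of Muc2 ran from 0.00124 to 0.258 over 24 alternatives and passed in 3 of them, with the top value reached without the Car1-high pair.

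Between the cohorts, Muc2 and Fcgbp were lower in the controls of 3 months than in those of 8 days. This comparison was added after the data were seen. Time after tamoxifen and cohort cannot be told apart in it, and the control genotypes differ too, since 2 of the 4 controls of 3 months are Rfx6f/+. Muc2 was 0.212-fold in the 3-month controls relative to the 8-day controls (95% interval 0.164 to 0.273), a log2 difference of -2.24 (SE 0.17, edgeR adjusted p 1.64e-06). The 4 controls of 3 months, at 1289 to 1726 CPM, all lay below the 3 controls of 8 days, at 5992 to 8395 CPM. The libraries labelled mutant of 3 months, at up to 3641 CPM, also lay below every 8-day library. Both this comparison and that of the genotypes at 3 months use the 3-month controls, so they are not independent.

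Fcgbp was lower as well, by a log2 difference of -0.88 (SE 0.15, edgeR adjusted p 0.000298), with 6835 to 8564 CPM against 13540 to 16130 CPM. Spdef stood at 26.3 to 32.6 CPM in the 3-month controls and at 43.6, 33.7 and 41.8 CPM in the 8-day controls, a difference of -0.40 (SE 0.15, adjusted p 0.0443), which was lost in 11 of 16 alternatives. With Rfx6f/f controls only, Muc2 stood at -2.36 (adjusted p 0.000103), Fcgbp at -0.94 (adjusted p 0.00356) and Spdef at -0.49 (adjusted p 0.0793). In the comparison of all controls these made 3 of 10 genes called, where 45.1% of 17959 genes were called, 22.1% as lower. Agr2 and Spink4 lay on the other side, at 0.42 (SE 0.19, adjusted p 0.0796) and 0.45 (SE 0.20, adjusted p 0.0896). Clca1 (-0.21), Zg16 (-0.20), Atoh1 (-0.13), Retnlb (-0.14) and Tff3 (-0.03) had adjusted p of 0.189 or more. Control libraries of the cohorts did not overlap in 7 of 10 genes, where 49.5% of all genes did not.

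Transcript length moved with this cohort difference. Over all genes its median log2 value fell from 0.305 for exon lengths up to 1 kb to -0.115 above 7 kb, and Fcgbp and Muc2 have the longest exons of the 10. With a trend on GC share and length removed, Muc2 stood at -2.00 (adjusted p 5.03e-06), Fcgbp at -0.40 (adjusted p 0.0364) and Spdef at -0.22 (adjusted p 0.267). Without the Car1-high pair the values were -2.15 for Muc2, -0.80 for Fcgbp and -0.38 for Spdef, with adjusted p of 4.13e-05, 0.00291 and 0.0871. At 3 months the same length bins ran only from -0.079 to 0.075, and the genotype effect on Muc2 was 0.91 (adjusted p 0.0172) with the trend removed.

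**Figure D3:**
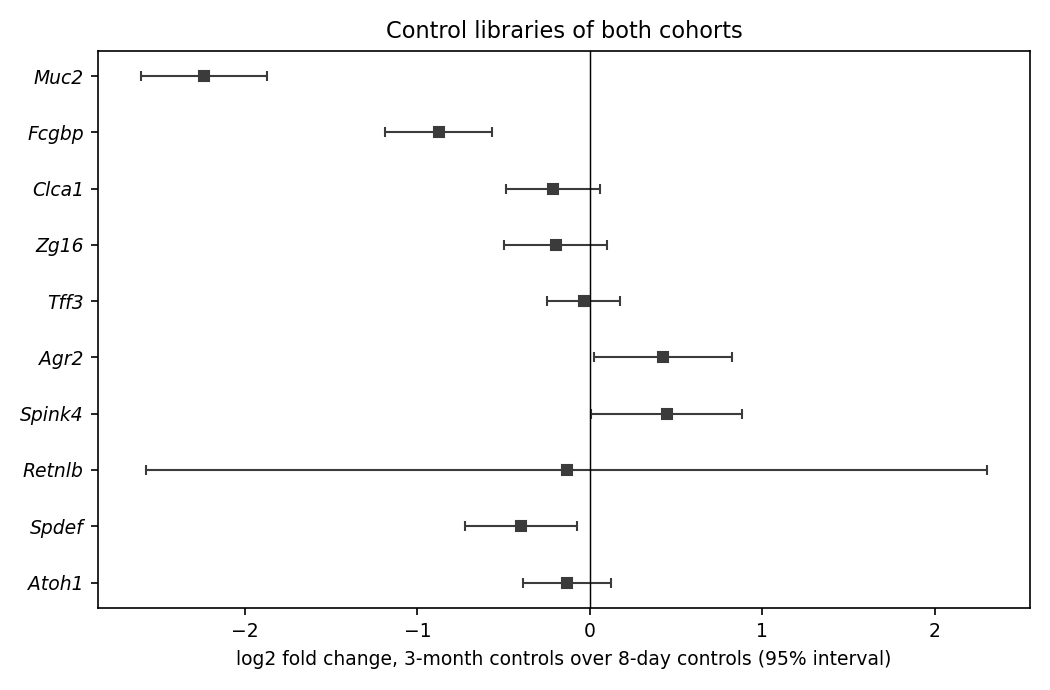
Log2 difference between 3-month controls (n = 4) and 8-day controls (n = 3) for each goblet gene, with the 95% interval as a bar. Muc2 at -2.24 and Fcgbp at -0.88 lie far below 0, while Agr2 and Spink4 lie above it.

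The 250 bases before the transcription start of the 3 genes called lower in the 3-month controls are shown because their differences, -2.24 for Muc2, -0.88 for Fcgbp and -0.40 for Spdef, had the same direction. The windows are RefSeq sequences on build GRCm38.p6, which is not the build of the counts, and 5 of the 10 genes had one. The start lies just after the last base. Capitals mark the E-box CAGCTG, a pattern that factors of the Atoh1 type can bind, and the letters TATAAA, each searched on both strands. Only these exact letters were searched, and variants of them are not marked.
Muc2 (chr7:141690090-141690339, plus strand): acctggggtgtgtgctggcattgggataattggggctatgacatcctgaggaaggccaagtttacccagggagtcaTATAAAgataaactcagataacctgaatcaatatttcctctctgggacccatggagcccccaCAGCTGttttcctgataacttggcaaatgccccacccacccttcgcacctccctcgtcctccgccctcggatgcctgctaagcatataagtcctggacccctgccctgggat
Fcgbp (chr7:28070986-28071235, plus strand): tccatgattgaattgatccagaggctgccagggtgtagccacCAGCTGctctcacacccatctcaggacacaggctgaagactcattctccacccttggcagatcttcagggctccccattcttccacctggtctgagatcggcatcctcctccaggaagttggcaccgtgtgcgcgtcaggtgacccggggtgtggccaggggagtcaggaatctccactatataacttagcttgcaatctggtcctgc
Spdef (chr17:27728952-27729201, minus strand): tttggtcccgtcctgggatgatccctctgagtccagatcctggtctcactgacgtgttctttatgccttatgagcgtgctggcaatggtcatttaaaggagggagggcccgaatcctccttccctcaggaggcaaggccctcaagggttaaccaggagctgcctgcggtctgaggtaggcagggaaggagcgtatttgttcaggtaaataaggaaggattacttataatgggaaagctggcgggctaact
The E-box began 112 bases before the start in Muc2 and 208 bases before it in Fcgbp, and these letters were not in the window of Spdef. The letters TATAAA were in the window of Muc2, 174 bases before the start, and whether they act as a TATA-box was not tested. Of 32851 RefSeq windows of this length, 13% held the E-box and 12.4% the letters TATAAA. The letters GTTNCC, a half-site of the X-box that Rfx factors bind, were in none of these 3 windows and in that of Agr2, where 39.4% of all windows held them. The windows of Agr2 and Atoh1 held neither the E-box nor the letters TATAAA.

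Some genes of the goblet secretory apparatus, Sytl2, Ern1 and Ramp1 among them, rose at 3 months. Of 25 tested genes for granules, regulated exocytosis and secretory stress, edgeR called 4 higher and 0 lower, against 4.96% and 4.32% of all genes, with a median log2 value of 0.14. At an unadjusted p under 0.05 were 11 of the 25 and 5018 of 17085 genes in all. The 4 calls fell to 1 without control replicate 1, 2 or 3 and to 0 with Rfx6f/f controls only, while DESeq2 called 5 higher and 2 lower, the joint fit 4 higher and 1 lower and scaling on epithelial markers 12 higher. Over all genes DESeq2 called 17.5%, the joint fit 12.6% and that scaling 20.2%, the last with 91.7% of its calls higher. Sytl2, which tethers granules to membranes, stood at 64.3, 64.7, 66.4 and 66.8 CPM in controls and at 87.8, 72.7, 84.0 and 78.1 CPM in libraries labelled mutant. The groups did not overlap, and Sytl2 rose by 0.31 (SE 0.06, edgeR adjusted p 0.0226). Its call was lost in 6 of 17 alternatives. With the GC and length trend removed Sytl2 stood at 0.20 (edgeR adjusted p 0.0559). Ern1, the stress sensor Ire1 alpha of the endoplasmic reticulum, rose by 0.33 (SE 0.06, adjusted p 0.0149), from 84.3 ± 5.08 to 105 ± 4.11 CPM (SD, n = 4 each). Ern2, in the same list, overlapped between the groups, at 30.77 to 36.95 CPM in controls and 32.3 to 39.9 CPM in libraries labelled mutant. Ramp1, a subunit of the receptor for the neuropeptide CGRP, rose by 0.46 (SE 0.10, adjusted p 0.0292), a call lost in 7 of 17 alternatives. Xbp1, the transcription factor whose mRNA Ern1 splices, was not called, at -0.36 (SE 0.11, adjusted p 0.0711).

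Of 18 tested genes for the glycosylation machinery that builds mucin sugar chains, edgeR called 0 higher and 1 lower at 3 months, against 4.96% and 4.32% of all genes, and 5 passed an unadjusted p of 0.05. DESeq2 called 1 higher and 1 lower. The median log2 value was -0.04, or 0.15 with scaling on epithelial markers, which called 3 higher and 1 lower. Over all genes DESeq2 called 17.5% and that scaling 20.2%. In this list St3gal4 was split across both groups, at 9.89 CPM in control replicate 4 and 12.3 and 14.1 CPM in mutant replicates 1 and 2. The remaining libraries of 3 months stood at 766 to 1395 CPM, and the cause was not tested. The gene called by edgeR was Gcnt1, a branching enzyme of O-glycans. Its levels were 94.3, 95.7, 111 and 113 CPM in controls and 41.4, 54.9, 18.2 and 17.4 CPM in libraries labelled mutant. The groups did not overlap, and Gcnt1 fell by 1.63 on the log2 scale (SE 0.35, edgeR adjusted p 0.0273). The call was lost without control replicate 1, 2 or 3, without mutant replicate 3, and with Rfx6f/f controls only. Lymphocytes express Gcnt1 too, and T cell markers summed to 190 to 279 CPM in these controls and 41.4 to 146 CPM in the libraries labelled mutant; their part in the change of Gcnt1 was not tested.

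Among 23 regulators of secretory fate and Notch signalling, edgeR called 3 higher and 0 lower at 3 months, against 4.96% and 4.32% of all genes. Their median log2 value was 0.07, and 9 had an unadjusted p under 0.05, as did 5018 of 17085 genes in all. DESeq2 called 5 higher and 1 lower, and the joint fit of all 15 libraries 4 higher and 1 lower. Over all genes these called 17.5% and 12.6%. The 3 calls fell to 0 without control replicate 3 or with Rfx6f/f controls only and to 1 without control replicate 1 or 2 or mutant replicate 2 or 4. Scaling on epithelial markers called 9 higher, where it called 20.2% of all genes, 91.7% of them higher. Nfia, a nuclear factor I transcription factor, stood at 30.8, 30.6, 28.8 and 32.7 CPM in controls and at 43.6, 36.7, 43.2 and 38.9 CPM in libraries labelled mutant. It rose by 0.42 (SE 0.07, edgeR adjusted p 0.0158) without overlap. Sox9, a crypt transcription factor, rose by 0.55 (SE 0.14, adjusted p 0.0411), with overlap between the groups, and the corepressor gene Cbfa2t2 rose by 0.28 (SE 0.07, adjusted p 0.0410). Of 17 alternatives, the call was lost in 8 for Sox9, in 9 for Cbfa2t2 and in 2 for Nfia. Neurog3, which commits progenitors to the endocrine fate, was at 0.94 (SE 0.27, adjusted p 0.0581), without overlap. Gfi1, a repressor that keeps goblet and Paneth precursors from the endocrine fate, was at -0.36 (SE 0.11, adjusted p 0.0778). The Notch ligand gene Dll1 and the Notch target Hes1 were at 0.03 and -0.16, with adjusted p of 0.890 and 0.244. At 8 days none of the genes of these 3 lists was called by edgeR, with or without the Car1-high pair, or by DESeq2, and 1, 1 and 4 genes of the secretory, glycosylation and regulator lists had an unadjusted p under 0.05.

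Immune cell markers were lower in the libraries labelled mutant at 3 months. The summed level of 8 B and plasma cell genes was 2125 to 3002 CPM in controls and 1135 to 1623 CPM in libraries labelled mutant, and 2 of the 8, Mzb1 and Jchain, were called lower, or 4 of the 8 without mutant replicate 4. For 8 T cell genes it was 190 to 279 CPM and 41.4 to 146 CPM, and 4 of the 8 were called lower. The T cell calls fell to 0 without control replicate 1, 2 or 3 or mutant replicate 3 and to 1 or 2 without control replicate 4 or mutant replicate 1 or 4, and were 6 without mutant replicate 2 and with DESeq2. With Rfx6f/f controls only, 0 genes of either list were called. At 8 days the B and plasma cell genes lay the other way, with 8 of 8 fold changes positive and a median log2 value of 2.37, at summed levels of 427 to 780 CPM in controls and 575 to 1076 CPM in libraries labelled mutant. There edgeR called 0 of the 8, with 7 at an unadjusted p under 0.05, DESeq2 called 1 higher, and without mutant replicate 1 edgeR called 6 higher. Epithelial markers summed to 9558 to 11290 CPM and 8758 to 9614 CPM. Of these 9 genes edgeR called 0, with 4 at an unadjusted p under 0.05, DESeq2 called 3 lower and the joint fit 1 lower, and the same 9 genes set the scaling on epithelial markers. Markers of proximal small intestine were at 73.0 to 127 CPM and 133 to 156 CPM without overlap. Of these 6 edgeR called 0, with 4 at an unadjusted p under 0.05, while DESeq2 called 3 higher and 1 lower and scaling on epithelial markers 3 higher. None of the genes of these 4 lists was at 0 in any library. In the colon list, Hoxd13 was at 0 in 12 libraries and Hoxb13 in 5, and its summed level at 3 months was 14.6 to 21.0 CPM in controls and 14.6 to 37.7 CPM in libraries labelled mutant. The part of these cells in the Muc2 result was not tested, and with libraries scaled on epithelial markers Muc2 stood at 1.14 on the log2 scale (edgeR adjusted p 0.00375).

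The same lists differed between the control cohorts, from 427 to 780 CPM at 8 days to 2125 to 3002 CPM at 3 months for B and plasma cells, and from 610.5 to 1289 CPM to 73.0 to 127 CPM for proximal small intestine. Their part in the cohort difference of Muc2 was not tested. Among the other epithelial lineages, edgeR called 0 of 8 Paneth cell genes and 0 of 6 stem cell genes at 3 months, with 2 and 1 at an unadjusted p under 0.05. DESeq2 called 0 Paneth cell genes and 1 stem cell gene, higher, and the joint fit 1 Paneth cell gene, lower. Of 8 enterocyte genes edgeR called 1, where DESeq2 called 3 higher and 1 lower. It was Fabp6, the ileal bile acid binding protein, which fell by 1.44 (SE 0.20, edgeR adjusted p 0.00873) and was not called with Rfx6f/f controls only. Enteroendocrine genes were called in 7 of 8, 3 higher and 4 lower. Over all genes at 3 months edgeR called 9.28%, 4.96% higher and 4.32% lower.

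**Figure D4:**
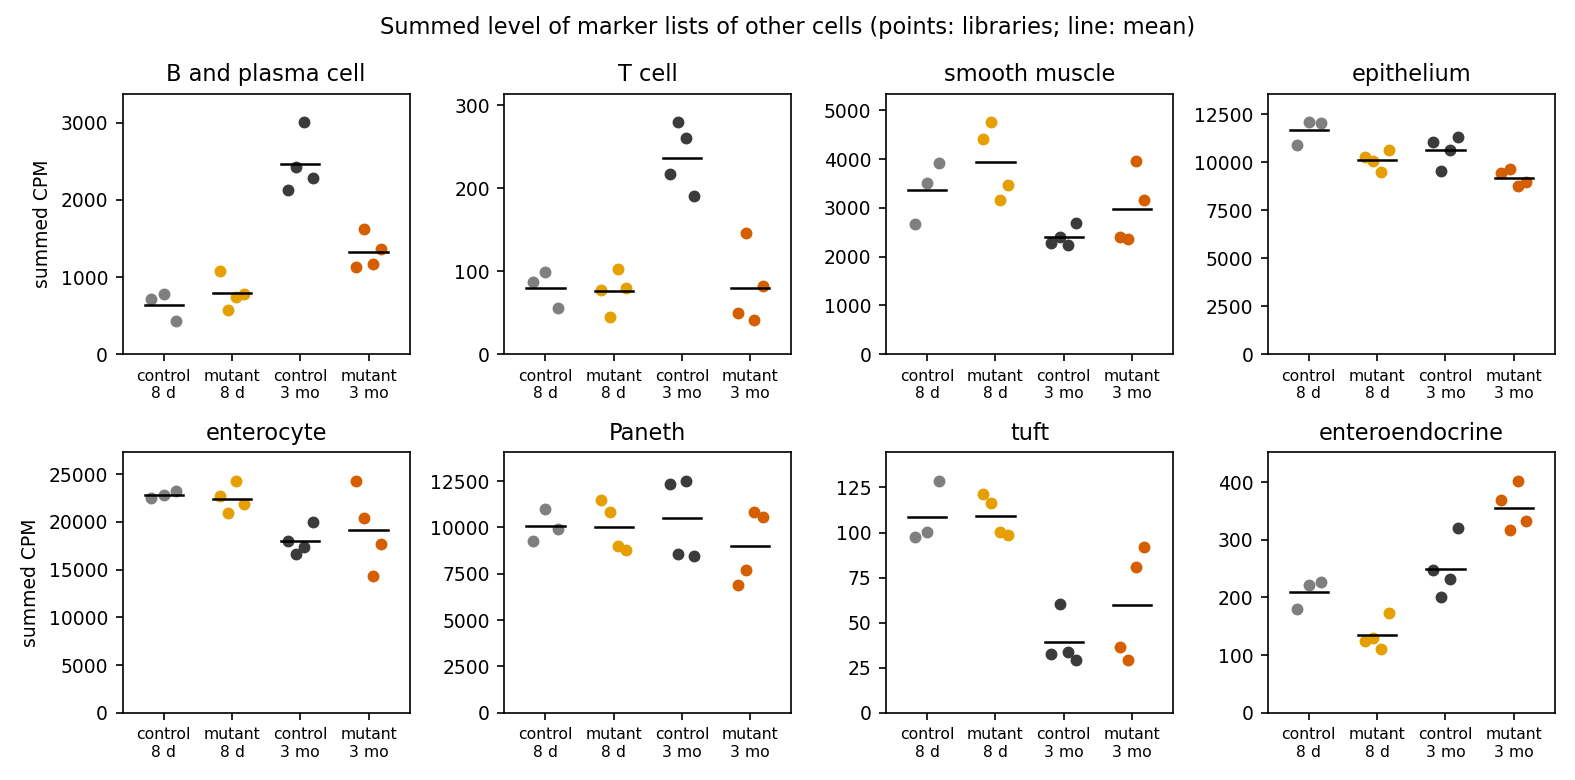
Summed CPM of marker lists of other cells (linear axes from 0) in the 4 groups of libraries, with points for libraries and a line at the mean. The sums for B and plasma cell genes, which Jchain can dominate, and for T cell genes are highest in the 3-month controls, at 2125 to 3002 CPM and 190 to 279 CPM.

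Goblet genes varied together only in part from library to library. After subtraction of group means of log2 CPM, Agr2 and Atoh1 had a Pearson r of 0.83 (Spearman 0.78), Spdef and Atoh1 0.82 (0.76) and Tff3 and Zg16 0.77 (0.80), over 15 libraries. Without the 2 libraries farthest out these were 0.64, 0.66 and 0.85. For Muc2 r was 0.62 with Retnlb, 0.49 with Spink4, 0.45 with Spdef, 0.34 with Atoh1 and 0.27 with Fcgbp. It was 0.24 with Agr2, 0.14 with Zg16, 0.03 with Tff3 and -0.16 with Clca1. Without the 2 libraries farthest out it was 0.61 with Retnlb, 0.55 with Spink4, 0.53 with Spdef and 0.22 with Clca1. Without the Car1-high pair these were 0.59, 0.51, 0.46 and -0.16, and Agr2 with Atoh1, Spdef with Atoh1 and Tff3 with Zg16 stood at 0.81, 0.78 and 0.85. Fcgbp was negative with Agr2 (-0.53) and Clca1 (-0.52). Of 45 pairs, 12 had an r above 0.5 and 14 an r below 0. These values are descriptions: libraries share groups and scaling, and no p is given. The SD of the deviations was 0.12 to 0.29 on the log2 scale for 9 of the genes and 1.71 for Retnlb.

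Single libraries also carried several genes at once. At 8 days mutant replicate 3 was the lowest of its group in Muc2, Clca1, Agr2, Spdef, Spink4 and Atoh1 and the highest in Fcgbp. At 3 months mutant replicate 2 was the lowest in 7 genes and the highest in Fcgbp. Control replicate 4 of 3 months was the lowest in 7 genes, Muc2 among them, and the highest in Zg16.

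**Figure D5:**
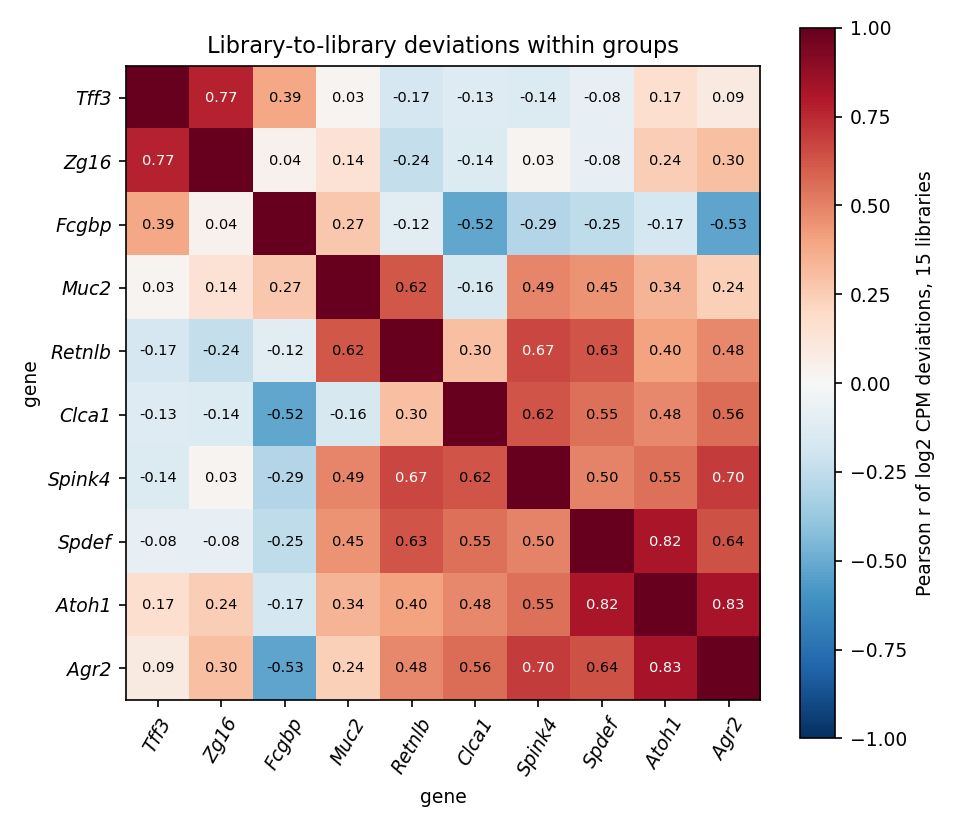
Pearson r between the goblet genes over 15 libraries, computed on log2 CPM after subtracting each group mean, with colour from -1 to 1. Agr2, Atoh1, Spdef and Spink4 form a block of positive values, Tff3 and Zg16 a pair at 0.77, and Muc2 stays at 0.49 or below with all but Retnlb.

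Across the 13518 genes whose log2 CPM averaged 0 or more, those whose deviations were most like those of Muc2 were Pla2g2c (Pearson r 0.92, Spearman 0.88), Atp2c2 (0.89, 0.86), Golga3 (0.89, 0.85), Pde8a (0.87, 0.86) and Stox2 (0.86, 0.85), over 15 libraries. Without the 2 libraries in which Muc2 lay farthest from its median, the r of these 5 was 0.76 to 0.87, and without the Car1-high pair 0.86 to 0.91. The goblet genes themselves were left out of this ranking, and the highest r of Muc2 with another goblet gene was 0.62, with Retnlb.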

How the data were processed

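Ileum RNA was depleted of ribosomal RNA per the labels' protocols; the labels also call the molecule poly(A) RNA. TRI-reagent or an RNeasy kit was used, and the labels do not say which sample had which. Per the submitters' processing notes, the tools were bcl2fastq 2.17.1.14, TopHat2 2.0.10, Bowtie 1.0.0, Bowtie2 2.1.0 and HTSeq 0.6.1 with build mm9; the annotation release and strand setting are not given in the sources used here. The deposited values are raw counts per Ensembl gene, 1 column per library, in 1 table per cohort. Columns were matched to samples by title, and 0 columns were left over. Symbols came from a reference list of gene names, which named 32897 of 37620 identifiers (87.45%). Exon lengths and GC shares came from GENCODE M21. No exon of the 10 genes overlapped another annotated gene.

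Each time point was fitted alone with edgeR 4.0.16 (R 4.3.3; filterByExpr with a minimum count of 10, TMM scaling, quasi-likelihood F test, two-sided). The interaction and the control cohorts came from 1 fit of all 15 libraries with 4 group means. P-values were adjusted over all genes tested by Benjamini-Hochberg, and 95% intervals used the quasi-likelihood degrees of freedom. CPM use joint TMM scaling, and correlations log2 CPM with a prior count of 2. No 2 libraries of a group agreed within counting error (chi-square per degree of freedom of 11.3 or more), so none was treated as a repeat deposit of another. Precision is set by the spread between replicates. Tests were first tried on simulated data with known changes. Figures were drawn with matplotlib 3.10.9.

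Alternatives were scaling by RLE, on 9 epithelial markers or with the top 20 genes by count left out, DESeq2 1.42.0, no filter, a minimum of 10 counts in every sample, a joint fit, each library left out, and controls restricted to Rfx6f/f. A GC and length trend, the control cohorts and leaving out the Car1-high pair were added after seeing the data. The 10 genes and all lists were chosen with earlier results of these data known. The text names the 10 genes, Rfx6, up to 4 called genes per list by smallest p, up to 2 as values where none was called, and the 5 genes most like Muc2. For T cell, enteroendocrine, Paneth, stem, epithelial and other marker lists of cells outside the goblet lineage it gives mostly counts and summed levels. In those lists this naming rule was not applied in full, and called genes are left unnamed. Car1, Hoxd13, Hoxb13, Xbp1, Ern2, St3gal4, Neurog3, Gfi1, Dll1, Hes1, Muc5ac, Muc5b, Muc6, Tff2, Il5, Il9 and Il13 fall outside that rule: they were picked with their values known. The result for 1 gene that met the rule is not reported here.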

Additional observations from a re-analysis of the deposited data

Results flagged for a closer look

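Retnlb stood at 27.7 CPM in mutant replicate 3 of 3 months, far from the other 3 libraries of its group at 1.12 to 2.05 CPM. Ramp1 stood at 15.4 CPM in mutant replicate 2 of 3 months, below the other 3 at 19.5 to 20.2 CPM, and above each control of that time (12.4 to 14.4 CPM). Over 54 such checks of groups of 4 libraries, 2 stood out, where chance gives about 1 in 20, or 2.7. For Nfia the genotype effect at 3 months exceeded that at 8 days by 0.47 on the log2 scale (SE 0.10, edgeR interaction test, adjusted p 0.0487), with effects of 0.42 at 3 months and -0.07 at 8 days. Its call was lost in 15 of 24 alternatives, with adjusted p of 0.232 without the Car1-high pair and 0.233 with Rfx6f/f controls only, and the difference itself ran from 0.38 to 0.54.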

How the results depend on the processing

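No paired analysis was possible because the replicate numbers follow the order of deposit and pair no mutant with a control. The rise of Muc2 at 3 months kept its direction in 17 of 17 alternatives, at 0.85 to 1.14, and its call in 16, with adjusted p from 1.87e-07 to 0.129; the one loss was with Rfx6f/f controls only, where fewer libraries were used. Of the 10 goblet genes at 3 months, 5 were called with scaling on epithelial markers, 3 with DESeq2 (Muc2, Clca1 and Zg16), 2 in the joint fit, 2 with the GC and length trend removed, 0 with Rfx6f/f controls only and 1 to 2 with 1 library left out. For the difference between times, DESeq2 called 2 of the 10 and leaving out 1 library 0 to 1.

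Counts over all genes moved more. At 8 days 51 genes were called with epithelial scaling (80.4% higher, 37.5% under TMM), 178 with DESeq2, 27 without a filter, 25 in the joint fit, 3 without the Car1-high pair and 8 to 200 with 1 library left out, with 200 reached without mutant replicate 1. At 3 months the counts were 3459, 2983 with DESeq2, 36 with Rfx6f/f controls only and 391 to 1521 with 1 library left out. For the difference between times they were 43 with epithelial scaling, 1017 with DESeq2, 223 without a filter, 248 with the stricter filter, 5 with Rfx6f/f controls only, 71 with the trend removed, 10 without the Car1-high pair and 10 to 749 with 1 library left out. In the control cohorts 5197 genes were called with Rfx6f/f controls only.

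Signs turned for goblet genes that were not called. With epithelial scaling they turned at 8 days for Clca1 (0.17), Agr2 (0.023), Spdef (0.18) and Atoh1 (0.16), at 3 months for Agr2 (0.14), Spdef (0.10) and Spink4 (0.057), and between control cohorts for Tff3 (0.10), Retnlb (0.061) and Atoh1 (0.0022); this scaling raised the median of all genes by 0.209, 0.193 and 0.136. With the trend removed Agr2 at 3 months stood at 0.0041. Between control cohorts Tff3 stood at 0.017 with Rfx6f/f controls only and at 0.030 without the Car1-high pair, and Retnlb at 1.10 without that pair, where Spink4 stood at -0.010 for the difference between times. With 1 library left out, the values at 8 days ran from -0.11 to 0.11 for Muc2, -0.073 to 0.11 for Tff3, -0.094 to 0.024 for Clca1, -0.13 to 0.099 for Spdef, -0.012 to 0.16 for Zg16, -0.49 to 1.32 for Retnlb and -0.12 to 0.053 for Atoh1. At 3 months they ran from -0.24 to 0.050 for Agr2, -0.55 to 2.19 for Retnlb and -0.057 to 0.071 for Atoh1. For the difference between times they ran from -0.050 to 0.21 for Agr2, -0.21 to 0.013 for Spdef, -0.62 to 2.23 for Retnlb, -0.15 to 0.22 for Spink4 and -0.040 to 0.13 for Atoh1, and between control cohorts from -0.15 to 0.045 for Tff3 and -0.57 to 1.12 for Retnlb. Except where fewer libraries entered the fit, the cause was not tested. With 3 or 4 libraries a group, precision is limited as the stated intervals show, and for Retnlb, at 14 to 1067 counts, these are wide.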

Other observations

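Relatives of the goblet genes were not called at either time by edgeR. Of the genes for other mucins and paralogs, 18 were tested at 3 months and 0 were called by edgeR or DESeq2 (1 at an unadjusted p under 0.05), while of 16 tested at 8 days DESeq2 called 1 lower (2 at an unadjusted p under 0.05 by edgeR). At 3 months the list stood at a median log2 value of -0.19, or 4.19e-05 with scaling on epithelial markers. Clca2, a paralog of Clca1, stood at 0.92 (SE 0.34, edgeR adjusted p 0.113), and Muc3, a membrane mucin of the brush border, at 0.42 (SE 0.19, adjusted p 0.184). Muc3 was lower in the 3-month than in the 8-day controls, by -1.67 (SE 0.18, edgeR adjusted p 1.48e-05), with 549 to 707 CPM against 1634 to 2102 CPM, and by -1.65 (adjusted p 0.000212) without the Car1-high pair. Of the gel-forming mucins of other tissues, Muc5b was at 0 in 9 of 15 libraries with at most 4 counts, and Muc5ac at 0 in 8 with at most 51 counts. Muc6, the gel-forming mucin of stomach and duodenal glands, had 0 to 6 counts in the 8-day libraries but 11, 366, 85 and 430 in the controls of 3 months and 395, 13, 29 and 66 in the libraries labelled mutant. Tff2, a trefoil peptide secreted with Muc6, had 1662, 1561 and 971 counts in the 3 libraries with the most Muc6 and at most 151 in the other 12. At 3 months the groups overlapped in both genes.

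Type 2 cytokines, which drive goblet cells in worm infection, were at the limit of detection. Il9 had 0 counts in 15 libraries, Il5 had 0 in 12 and Il13 had 0 in 7, with at most 5 counts for Il13. Of 11 genes of this list tested at 3 months edgeR called 0 (4 at an unadjusted p under 0.05), DESeq2 and the joint fit 1 higher each and scaling on epithelial markers 2 higher. Without mutant replicate 2 edgeR called 1 higher and 2 lower. Il17rb, a receptor chain for interleukin 25, stood at 2.80, 3.42, 3.07 and 3.69 CPM in controls and at 4.12, 4.09, 5.94 and 7.23 CPM in libraries labelled mutant. The groups did not overlap, and the log2 fold change was 0.73 (SE 0.20, edgeR adjusted p 0.0549). Of 6 tuft cell genes 1 was called higher, where 4.96% of all genes were called higher. It was Alox5, a lipoxygenase of leukotriene synthesis, which rose by 1.24 (SE 0.30, edgeR adjusted p 0.0394). This call was lost in 6 of the 8 fits with 1 library left out, those without any 1 of the 4 controls or without mutant replicate 3 or 4, and with Rfx6f/f controls only. In mutant replicates 3 and 4, where Il17rb was highest, Alox5 stood at 6.82 and 6.22 CPM, against 3.05 and 3.01 CPM in replicates 1 and 2.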
